A study of Mus musculus with 8 samples.

Results

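The genes of 10 mouse chemokine ligands were followed in cultured hematopoietic stem and progenitor cells (HSPCs): Ccl2, Ccl3, Ccl4, Ccl5, Ccl6, Ccl9, Ccl22, Cxcl2, Cxcl10 and Cxcl16. They were listed by name and matched by symbol in the GENCODE M21 annotation, and all 10 were found among the 48709 gene identifiers of the count tables. HSPCs of C57Bl/6J mice, defined as cells lacking lineage markers and carrying Sca1 and cKit, were seeded at 10000 per well, and the RNA is that of their progeny. Culture lasted 7 days without serum, with 100 ng/ml of stem cell factor and 2 ng/ml of Flt3 ligand for all wells, and part of the medium was renewed after 3 or 4 days. The control group (4 libraries) received nothing further, and the malonyl-CoA group (4 libraries) received 100 µM malonyl-CoA, the chain-extending substrate of fatty acid synthesis. Libraries carry the numbers 1, 3, 4 and 5 in both groups. The labels number them as replicates without naming an animal, a pool or a culture, so p-values measure the spread between these samples, which may be technical.

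Chemokines are small secreted proteins that guide leukocytes along gradients by binding G protein-coupled receptors. Their names follow the spacing of the first conserved cysteines, adjacent in the Ccl group and separated by a residue in the Cxcl group. In bone marrow they direct the release and homing of blood cells, and Ccl3 is known as an inhibitor of stem cell proliferation. Many are transcribed on demand by myeloid cells when NF-kB, AP-1 or interferon-regulated factors are activated.

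The genes lie in few places of the genome (GRCm38 coordinates). On chromosome 11 lie 7 of them, and 5 of these form a run of 138.9 kb: Ccl5 (83525778 to 83530518, minus strand), Ccl9 (83572919 to 83578636, minus), Ccl6 (83587882 to 83593087, minus), Ccl3 (83647844 to 83649355, minus) and Ccl4 (83662584 to 83664683, plus). Ccl2 (82035571 to 82037453, plus) and Cxcl16 (70453983 to 70459984, minus) are on the same chromosome. Chromosome 5 holds Cxcl2 (90903871 to 90905938, plus) and Cxcl10 (92346638 to 92348889, minus), and chromosome 8 holds Ccl22 (94745590 to 94751699, plus).

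Promoters are shown for 4 genes whose behaviour in the cultures differed: Cxcl2, with the widest range between libraries, Cxcl10 and Ccl22, which stood higher with malonyl-CoA in most libraries, and Ccl9, the most abundant and the steadiest. Each is the RefSeq window (GRCm38.p6) from 250 bases before the start site to 50 after it, written 5′ to 3′ along the gene. Capitals mark matches, on either strand, to the kB consensus, the interferon-stimulated response element (ISRE, read as GAAA, any 2 bases and GAAA), the AP-1 site TGANTCA and the TATA box TATAAA.
Cxcl2, chr5:90903649-90903948, plus strand: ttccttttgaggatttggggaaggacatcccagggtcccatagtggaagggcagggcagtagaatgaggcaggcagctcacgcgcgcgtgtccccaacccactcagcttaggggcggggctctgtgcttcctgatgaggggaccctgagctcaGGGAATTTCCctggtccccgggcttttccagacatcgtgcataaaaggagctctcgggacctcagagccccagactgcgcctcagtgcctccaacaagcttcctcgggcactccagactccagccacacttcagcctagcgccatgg
Cxcl10, chr5:92348840-92349139, minus strand: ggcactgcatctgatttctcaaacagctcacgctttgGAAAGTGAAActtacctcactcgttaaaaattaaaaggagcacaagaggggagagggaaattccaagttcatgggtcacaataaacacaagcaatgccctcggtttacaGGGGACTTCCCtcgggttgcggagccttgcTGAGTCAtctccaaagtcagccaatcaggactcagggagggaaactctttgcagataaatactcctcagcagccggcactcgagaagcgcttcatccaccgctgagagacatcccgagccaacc
Ccl22, chr8:94745434-94745733, plus strand: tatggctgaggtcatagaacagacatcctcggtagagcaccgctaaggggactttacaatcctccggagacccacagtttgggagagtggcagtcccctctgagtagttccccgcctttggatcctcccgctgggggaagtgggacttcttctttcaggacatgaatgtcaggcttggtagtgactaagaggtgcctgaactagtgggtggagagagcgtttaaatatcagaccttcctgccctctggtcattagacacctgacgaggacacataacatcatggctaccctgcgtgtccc
Ccl9, chr11:83578587-83578886, minus strand: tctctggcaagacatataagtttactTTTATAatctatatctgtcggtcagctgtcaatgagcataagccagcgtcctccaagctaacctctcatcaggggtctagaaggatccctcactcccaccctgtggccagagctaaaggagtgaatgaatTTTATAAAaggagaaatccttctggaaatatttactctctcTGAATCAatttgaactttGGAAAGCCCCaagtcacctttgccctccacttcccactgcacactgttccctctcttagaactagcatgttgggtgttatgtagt

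The RefSeq table held a promoter for 6 of the 10 genes: these 4, Ccl3 and Ccl6. A kB match was found in 3 of the 6, in Cxcl2 starting 97 bases before the start site, in Cxcl10 (overlapping matches starting 104 and 103 bases before it) and on the opposite strand in Ccl9, 35 bases before it. Of all 32851 promoters of this length, 5.8% held one. Cxcl10 also had an ISRE match 213 bases before its start, a motif found in 3.44% of promoters. AP-1 matches were present in Cxcl10 (74 bases before the start) and Ccl9 (53 bases), against 7.81% of promoters. Ccl9 had TATA matches starting 224 and 94 bases before the start on the opposite strand and 92 bases before it on its own strand. Those at 94 and 92 bases partly overlap each other. A TATA match was found in 13.6% of promoters. The windows of Ccl3, Ccl6 and Ccl22 held none of these letters. A match is a description of the sequence and not a measured binding site.

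Counts assigned to genes ranged from 17492085 to 22079844 per library. Over all genes, malonyl-CoA 4 and control 4 had the highest scores on the leading principal component (48.9% of the variance), 63.3 and 25.3. The other 6 lay between -30.4 (control 1, at the opposite end) and 0.4 (malonyl-CoA 3). Malonyl-CoA 4 and control 4 also had the most tallied reads in no gene (2.94% and 1.56%). Their shares of reads not uniquely placed were the lowest (38.2% and 44.3%). Deviations of genes from their mean varied with transcript GC content: Spearman's rho across genes, which are not independent replicates, was -0.11, -0.08, 0.24 and -0.74 in control libraries 1, 3, 4 and 5 and 0.52, 0.25, 0.23 and 0.20 in malonyl-CoA 1, 3, 4 and 5. Progenitor markers were present in every library, with Kit between 204 and 320 CPM (counts scaled to library size). Cd34 was at 545 to 643 CPM in control and 430 to 476 with malonyl-CoA. Of 8 stem and progenitor markers tested, 4 were fitted higher and 4 lower with malonyl-CoA. In 2 of the 8 all malonyl-CoA libraries lay below the controls, against 2.93% of all genes. The granule gene Mpo of neutrophil precursors reached 6310 to 11880 CPM. Fewer cells of a type and less RNA per cell cannot be told apart in bulk samples.

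All 10 genes passed the filter on low counts, and none passed the test for a difference between the groups. The smallest adjusted p was that of Ccl5 (edgeR quasi-likelihood test, 0.368, Benjamini-Hochberg over 12696 genes). The background was 0%, since none of the 12696 genes reached an adjusted p below 0.05. Before adjustment, with p below 0.05, 4 of the 10 were higher with malonyl-CoA (Ccl5, Ccl22, Cxcl10 and Cxcl16), where 5.43% of all genes were, and 0 were lower, where 4.1% were. DESeq2 called Ccl5 (adjusted p = 0.0439), against 0.473% of the genes it gave an adjusted p that were called higher, and limma-voom called 0 of the 10. An edgeR fit with the library number as a block called Ccl5 and Ccl22, 2 of the 10, where 1.13% of all genes were called higher. The fitted log2 fold change was above 0 for 8 of the 10 (53.4% of all genes), with a median of 0.59 against 0.02 over all genes tested. With a correction for GC content this median was 0.68, with Ccl5 at 1.15 and Ccl9 at -0.27. The genes were chosen with earlier results of these data known, so these counts are descriptions.

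**Figure D1:**
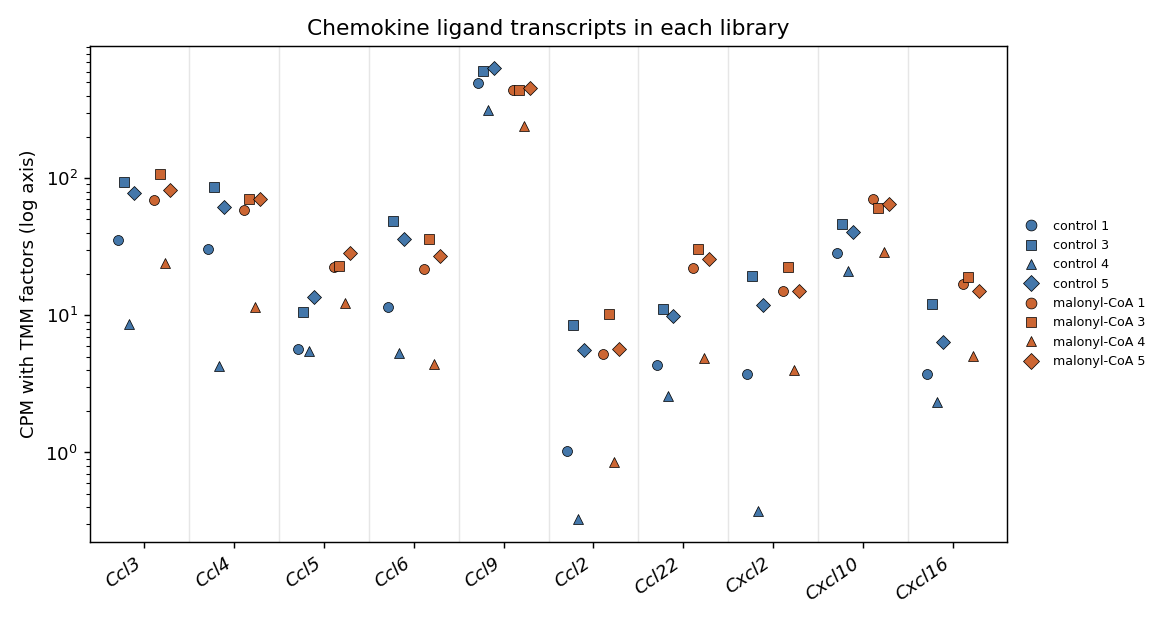
Each point is 1 library: CPM with TMM factors on a log axis for the 10 ligands, controls left and malonyl-CoA right, with the marker shape giving the library number. Control 4 and malonyl-CoA 4 (triangles) lie low in nearly every gene, and Cxcl2 spans 0.373 to 22.6 CPM while Ccl9 lies between 238 and 632.

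The inflammatory Ccl ligands of the chromosome 11 run, which attract monocytes and other leukocytes, held the most abundant of the genes. Ccl3, a ligand of CCR1, stood at 35.6, 94.3, 8.62 and 77.5 CPM in control libraries 1, 3, 4 and 5 and at 69.5, 108, 24.0 and 81.8 CPM in malonyl-CoA 1, 3, 4 and 5. The groups overlapped, with control 4 lowest, malonyl-CoA 4 next and malonyl-CoA 3 highest. Means were 54.0 ± 39.1 and 70.9 ± 35.2 CPM (SD, n = 4 each), a log2 fold change of 0.39 (SE 0.64, edgeR adjusted p = 0.790). Ccl4, a monocyte and T cell attractant encoded 13.2 kb from Ccl3, stood at 30.4, 85.8, 4.29 and 61.8 CPM in the controls and 58.3, 71.1, 11.6 and 71.0 CPM with malonyl-CoA. Its order of the lowest 3 libraries was that of Ccl3, and its fitted difference was smaller than its error (edgeR adjusted p = 0.906, log2 fold change 0.22 with an SE of 0.75). Without control 4 the value for Ccl3 was 0.03 and that for Ccl4 -0.17, and without control 3 they were 0.80 and 0.72.

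Ccl5, which attracts T cells and monocytes, had the smallest p of the 10. Its CPM were 5.65, 10.6, 5.45 and 13.7 in control libraries 1, 3, 4 and 5 and 22.5, 23.1, 12.3 and 28.6 in malonyl-CoA 1, 3, 4 and 5. The libraries malonyl-CoA 1, 3 and 5 lay above every control, while malonyl-CoA 4 lay between controls 3 and 5. Means were 8.85 ± 4.01 and 21.6 ± 6.80 CPM (SD, n = 4 each), and the log2 fold change was 1.28 (edgeR, SE 0.34, adjusted p = 0.368). Over the 22 alternative settings its log2 fold change ran from 1.10 to 1.77. Ccl5 is a product of T and NK cells as well as of myeloid cells, and of 9 T and NK cell markers 3 passed the filter. Cd3e was at 0 in all 8 libraries, Gzma reached at most 0.215 CPM and Ncr1 at most 0.236 CPM. The summed level of that list was 183 to 273 CPM in control and 123 to 193 with malonyl-CoA, nearly all of it Nkg7. Of the 3 tested genes of the list, 1 was fitted higher and 2 lower. Cd8a was at 1.49 ± 0.91 and 1.92 ± 0.78 CPM (log2 fold change 0.35, SE 0.47). Nkg7 differed by -0.55 on the log2 scale (SE 0.17) and Klrb1c by -0.53 (SE 0.49). The part of these cells in the Ccl5 values was not tested.

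Ccl6 and Ccl9, rodent chemokines that bind CCR1, were the only genes with a fitted difference below 0. Ccl6 stood at 11.5, 48.8, 5.31 and 36.0 CPM in the controls and 21.9, 36.1, 4.42 and 27.0 CPM with malonyl-CoA, with the groups overlapping. Its log2 fold change of -0.19 (SE 0.71, edgeR adjusted p = 0.915) changed sign without control 3 (0.34), control 5 (0.03) or malonyl-CoA 4 (0.15). Ccl9 stood at 495, 606, 313 and 632 CPM in control libraries 1, 3, 4 and 5 and at 436, 439, 238 and 456 CPM in malonyl-CoA 1, 3, 4 and 5. Controls 1, 3 and 5 lay above all malonyl-CoA libraries and control 4 did not. Means were 511 ± 145 and 392 ± 103 CPM (SD, n = 4 each), a log2 fold change of -0.38 (SE 0.26, edgeR adjusted p = 0.553). It was -0.21 without malonyl-CoA 4 and -0.09 without control 5 and malonyl-CoA 4. Ccl5, 42.4 kb away on the same strand, had the opposite sign in its fitted difference.

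Ccl2, which draws monocytes from the marrow through CCR2, had few counts in the lowest libraries. It had 18, 157, 7 and 119 counts in control libraries 1, 3, 4 and 5 and 107, 209, 19 and 96 in malonyl-CoA 1, 3, 4 and 5. In CPM this was 1.03, 8.44, 0.326 and 5.59 against 5.21, 10.2, 0.849 and 5.68. Controls 1 and 4 and malonyl-CoA 4 were low and the other 5 libraries high, so that the groups overlapped across almost their whole range. the log2 fold change was 0.51 (edgeR, SE 0.82, adjusted p = 0.790), and it was 0.003 without malonyl-CoA 3, 0.11 without control 4 and 1.21 without control 3.

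Ccl22, the ligand of CCR4 that dendritic cells and macrophages make to attract T cells, had the largest fitted difference of the 10. Its CPM were 4.34, 11.1, 2.56 and 9.95 in control libraries 1, 3, 4 and 5 and 22.3, 30.4, 4.91 and 25.8 in malonyl-CoA 1, 3, 4 and 5. The libraries malonyl-CoA 1, 3 and 5 lay above every control, and malonyl-CoA 4 lay among the controls. Means were 7.00 ± 4.19 and 20.8 ± 11.1 CPM (SD, n = 4 each), a log2 fold change of 1.57 (SE 0.57, edgeR adjusted p = 0.502), and 1.90 (adjusted p = 0.192) without malonyl-CoA 4.

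Cxcl2, a neutrophil attractant that binds CXCR2, varied most between libraries. It had 66, 361, 8 and 254 counts in control libraries 1, 3, 4 and 5 and 311, 462, 89 and 255 in malonyl-CoA 1, 3, 4 and 5, or 3.76, 19.4, 0.373 and 11.9 CPM against 15.1, 22.6, 3.97 and 15.1. The highest control was 52.1 times the lowest, and control 3 exceeded all malonyl-CoA libraries but malonyl-CoA 3. the log2 fold change was 0.68 (edgeR, SE 0.79, adjusted p = 0.708), 0.27 without control 4 and 1.40 without control 3. Cxcl3, a CXCR2 ligand on the same chromosome, was named here after its values were seen. It stood at 0.513, 6.83, 0.0466 and 2.91 CPM in the controls and 4.63, 7.77, 0.357 and 4.55 CPM with malonyl-CoA. Like Cxcl2 it was lowest in control 1, control 4 and malonyl-CoA 4. Cxcl1, which lies between Cxcl3 and Cxcl2, had 1 count over all 8 libraries.

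Cxcl10, an interferon-inducible ligand of CXCR3 on T and NK cells, stood at 28.5, 46.1, 21.1 and 40.5 CPM in controls 1, 3, 4 and 5. With malonyl-CoA it stood at 70.7, 60.9, 29.2 and 64.7 CPM in libraries 1, 3, 4 and 5. Again malonyl-CoA 1, 3 and 5 lay above every control and malonyl-CoA 4 did not. Means were 34.1 ± 11.3 and 56.4 ± 18.6 CPM (SD, n = 4 each), a log2 fold change of 0.73 (SE 0.31, edgeR adjusted p = 0.515). Cxcl10 shares 5.91% of its exon bases with Art3 on the opposite strand, a gene with 32 counts over all libraries.

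Cxcl16, a membrane-anchored ligand of CXCR6 that the protease ADAM10 can shed, showed the same arrangement. Its CPM were 3.71, 12.1, 2.33 and 6.38 in control libraries 1, 3, 4 and 5 and 16.9, 18.9, 5.05 and 14.96 in malonyl-CoA 1, 3, 4 and 5. Malonyl-CoA 4 was the one library of its group not above all controls. the log2 fold change was 1.19 (edgeR, SE 0.52, adjusted p = 0.515), 1.75 without control 3 and 0.91 without control 4. Exons of Zmynd15 on the opposite strand cover 18.3% of its exon bases, with 26 counts over all libraries. Ccl5, Ccl22, Cxcl10 and Cxcl16 were thus the 4 of 10 genes with at least 3 malonyl-CoA libraries above all controls, an arrangement found in 10.2% of all genes tested. In 0 of the 10 did all 4 malonyl-CoA libraries lie above the controls (3.21% of all genes) or below them (2.93%).

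**Figure D2:**
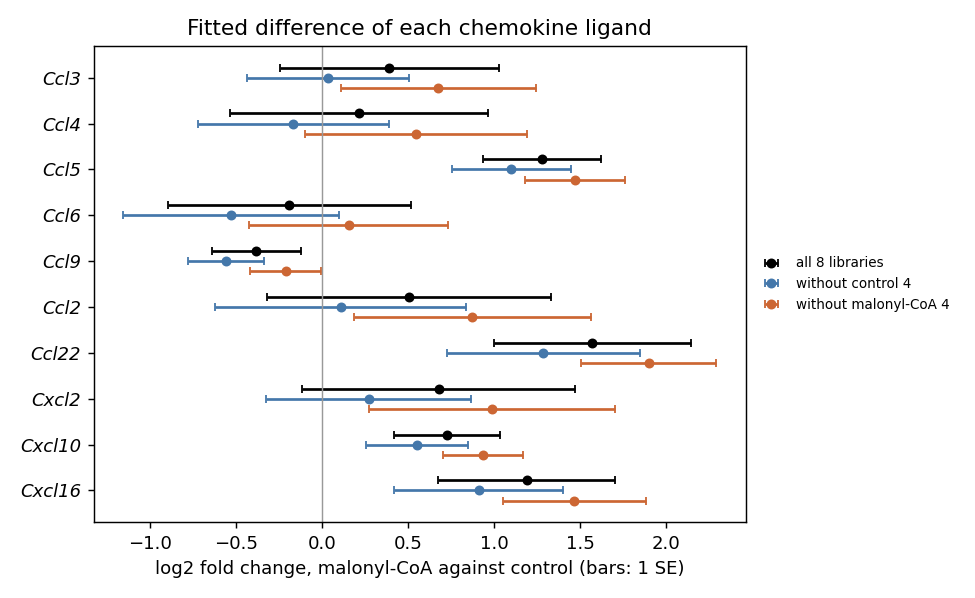
Fitted log2 fold changes of malonyl-CoA against control with bars of 1 SE, from all 8 libraries (black), without control 4 (blue) and without malonyl-CoA 4 (orange). Ccl5, Ccl22, Cxcl10 and Cxcl16 lie to the right of 0 in all 3 fits, Ccl9 to the left, and Ccl4 and Ccl6 cross 0.

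Libraries of one group lay far apart for several of the genes. Among the controls, the highest library was 52.1 times the lowest for Cxcl2, 25.9 times for Ccl2, 20.0 times for Ccl4, 10.9 times for Ccl3 and 9.20 times for Ccl6. It was 5.20 times for Cxcl16, 4.35 times for Ccl22, 2.51 times for Ccl5, 2.19 times for Cxcl10 and 2.02 times for Ccl9. Among the malonyl-CoA libraries the ratio ran from 1.91 for Ccl9 to 12.03 for Ccl2, with 5.68 for Cxcl2. Control 4 was the lowest library for 8 of the 10 and malonyl-CoA 4 for the other two, Ccl6 and Ccl9, while malonyl-CoA 3 was the highest for 5. In 8 of the 10, all but Ccl5 and Ccl9, the 3 lowest libraries were control 1, control 4 and malonyl-CoA 4, which was so in 4.16% of all genes tested. This arrangement was noticed in the data and cuts across the treatment groups.

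**Figure D3:**
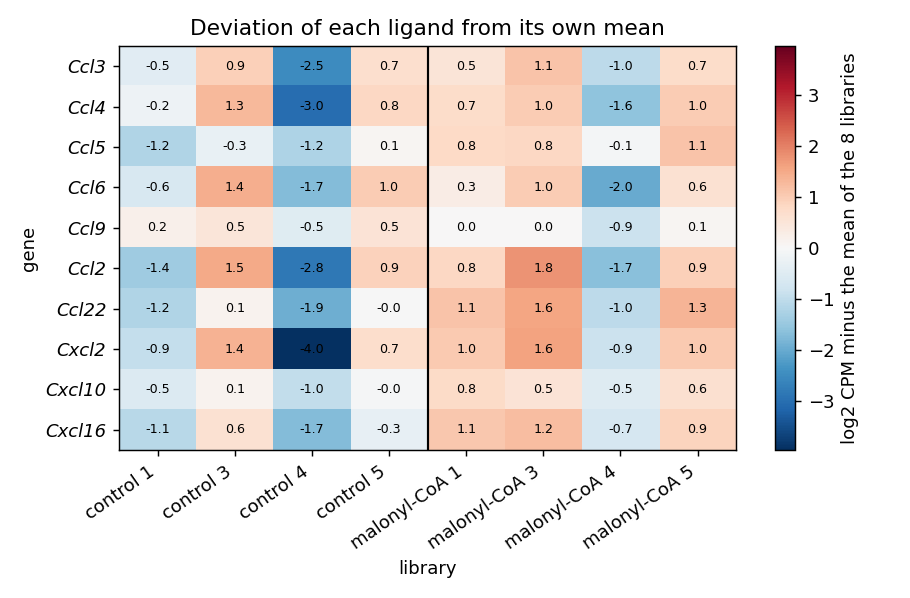
Log2 CPM of each ligand minus its mean over the 8 libraries, controls left of the black line and malonyl-CoA right of it. Control 4 is blue in every row, down to -3.97 for Cxcl2, and malonyl-CoA 4 is blue in every row, while malonyl-CoA 1, 3 and 5 are at 0 or above.

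The summed markers of dendritic cells and of monocytes and macrophages were lowest in the same 3 libraries, while single markers differed: these libraries were the 3 lowest for 3 of 10 tested dendritic cell markers and 5 of 12 tested monocyte and macrophage markers. Dendritic cell markers (10 of 11 tested, 0 called) summed to 515 CPM in control 1, 539 in control 4 and 671 in malonyl-CoA 4, against 713 and 950 in controls 5 and 3 and 1016 to 1297 in the other malonyl-CoA libraries. None of these 11 genes was at 0 in all libraries. Cd74 and H2-Ab1 made up most of the dendritic cell sum. H2-Ab1 was lower in control 5 (126 CPM) than in control 1 (129 CPM) or malonyl-CoA 4 (131 CPM). Monocyte and macrophage markers (12 of 14 tested, 0 called) summed to 3005 to 4473 CPM in control and 3366 to 4442 with malonyl-CoA, lowest in control 4, malonyl-CoA 4 and control 1. Lyz2 and Ly6c2 made up most of that sum, and Ly6c2 was highest in control 1 (1357 CPM). Csf1r stood at 324, 338, 323 and 275 CPM in malonyl-CoA 1, 3, 4 and 5, all above the highest control (239 CPM). In 2 of the 12 tested monocyte and macrophage markers all malonyl-CoA libraries lay above the controls (3.21% of all genes). In 0 of them did all lie below (2.93%). The dendritic list's Ciita was highest in malonyl-CoA 4 (16.7 CPM). Cd14, one of the 5, stood at 46.2, 104, 17.8 and 72.3 CPM in control libraries 1, 3, 4 and 5 and 103, 122, 27.7 and 109 in malonyl-CoA 1, 3, 4 and 5, and C1qa stayed at or under 0.633 CPM. Neutrophil markers (11 of 12 tested, 0 called) summed to 13565 to 21427 CPM in control and 13724 to 17550 with malonyl-CoA, much of it Mpo. All 11 were fitted lower with malonyl-CoA (median log2 fold change -0.44), where 53.4% of all genes were fitted higher. Of the 11, 5 had an unadjusted edgeR p below 0.05. S100a8 was among them at -1.06 (SE 0.39), with control 5 at 1307 CPM and the other controls at 380 to 659. Dendritic cell markers had 7 fitted higher (5 with such a p) and 3 lower (1). Monocyte and macrophage markers had 10 higher (4) and 2 lower (0). Over all genes such a p was found for 5.43% higher and 4.1% lower. The part of cell makeup in the chemokine values was not tested.

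Profiles over the 8 libraries sorted the genes into neighbours. Likeness was measured as the root mean square difference of log2 CPM profiles, each centred on its own mean, and a smaller value means a closer profile. Profiles were not scaled to equal spread, so the value also depends on how widely each gene varied. Among the 10, Ccl22 and Cxcl16 were closest (0.32), followed by Ccl3 and Ccl4 (0.34) and by Ccl5 and Cxcl10 (0.39), and the farthest were Ccl9 and Cxcl2 (1.54). Over 10658 genes compared, the profiles closest to Ccl5 were those of Cp (0.23), Gbp2 (0.24) and Saa3 (0.24). Acod1 (0.20), Serpina3g (0.22) and Nr4a3 (0.26) were closest to Ccl22, and Tgm2 (0.14), Traf1 (0.15) and Cd83 (0.16) to Cxcl16. For Cxcl10 they were Mcoln2 (0.15), Apol7c (0.16) and Tgtp2 (0.17). The closest profile to both Ccl3 (0.23) and Ccl4 (0.28) was that of Hcar2. Clec4n lay closest to Ccl2 (0.36), Bhlhe41 to Ccl6 (0.33) and Ccl2 itself to Cxcl2 (0.54). Ccl9 had the closest match of the 10, Ccr1 (0.08), and also the smallest spread, its highest library being 2.65 times its lowest. For Cxcl2, with the widest spread, this ratio was 60.6.

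Levels of different genes were compared as CPM per kb of exon. Ccl9 led in control at 168 ± 47.6 (SD, n = 4), followed by Ccl3 at 70.5 ± 51.0, Ccl4 at 69.1 ± 54.0, Cxcl10 at 15.1 ± 5.04, Ccl6 at 14.2 ± 11.4, Ccl5 at 9.22 ± 4.18, Cxcl2 at 4.29 ± 4.13, Ccl2 at 3.38 ± 3.38, Ccl22 at 3.01 ± 1.801 and Cxcl16 at 2.03 ± 1.43. The ranges of neighbours in this order overlapped throughout. Ccl9 exceeded Ccl3 within each of the 4 control libraries, by 97.5 ± 17.6 CPM per kb, as Ccl5 exceeded Cxcl2 (by 4.93 ± 2.83) and Ccl22 exceeded Cxcl16 (by 0.98 ± 0.81). The other neighbours in this order did not hold their order in all 4 control libraries: Ccl3 and Ccl4 differed by 1.46 ± 6.25 and Cxcl10 and Ccl6 by 0.98 ± 6.48 CPM per kb. With malonyl-CoA the first 4 kept their order, at 129 ± 33.9 for Ccl9, 92.5 ± 45.9 for Ccl3, 80.3 ± 42.8 for Ccl4 and 25.0 ± 8.24 for Cxcl10 (SD, n = 4). Ccl5 stood ahead of Ccl6 there (22.5 ± 7.09 against 12.4 ± 7.42), in each of the 4 libraries, and Ccl22 (8.97 ± 4.79) ahead of Cxcl2 (6.86 ± 3.71), also in each of the 4. In single libraries Ccl9 made up 28.6% to 73.0% of the summed level per length of the 10 genes, the most in control 4.

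**Figure D4:**
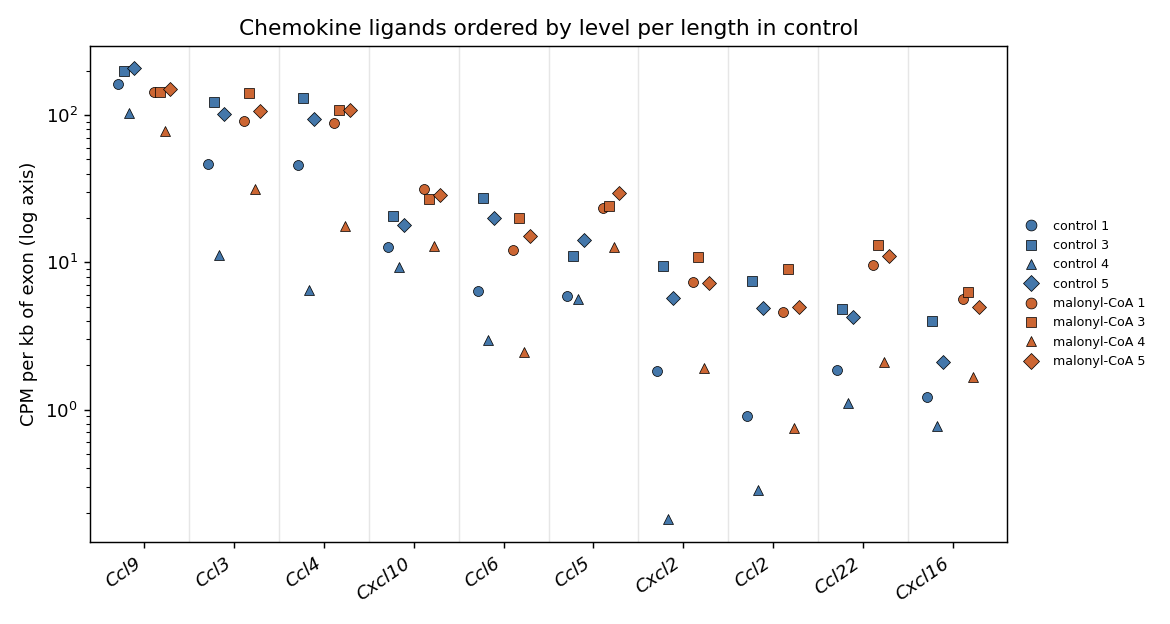
CPM per kb of exon on a log axis, 1 point per library, with genes ordered by their mean in control. Ccl9, Ccl3 and Ccl4 lead in both groups, and the low points of Cxcl2 and Ccl2 are those of control 4.

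Receptor genes of these ligands ranged from abundant to nearly undetected. Ccr2, the receptor of Ccl2, averaged 628 ± 146 CPM over the controls and 525 ± 25.4 over the malonyl-CoA libraries (SD of 4), its log2 fold change being -0.26 (SE 0.16). Ccr1 (46.6 ± 14.7 and 38.4 ± 10.97 CPM) was lowest in malonyl-CoA 4 and control 4, the lowest libraries of its ligand Ccl3. Cxcr2, the receptor of Cxcl2, stood at 9.30, 7.91, 10.9 and 11.6 CPM in control libraries 1, 3, 4 and 5 and 7.60, 7.72, 7.55 and 7.27 in malonyl-CoA 1, 3, 4 and 5. It was the receptor gene whose groups did not overlap, all 4 malonyl-CoA libraries lying below the controls (1 of 13 tested, against 2.93% of all genes), and it did not pass the test (edgeR adjusted p = 0.507, log2 fold change -0.40 with an SE of 0.16). Cxcr3, which reads Cxcl10, was at 4.34 ± 0.61 and 3.47 ± 0.49 CPM. The receptor genes for Ccl22 and Cxcl16 had few counts: Ccr4 had 1 count and Cxcr6 had 9 counts over all 8 libraries.

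**Figure D5:**
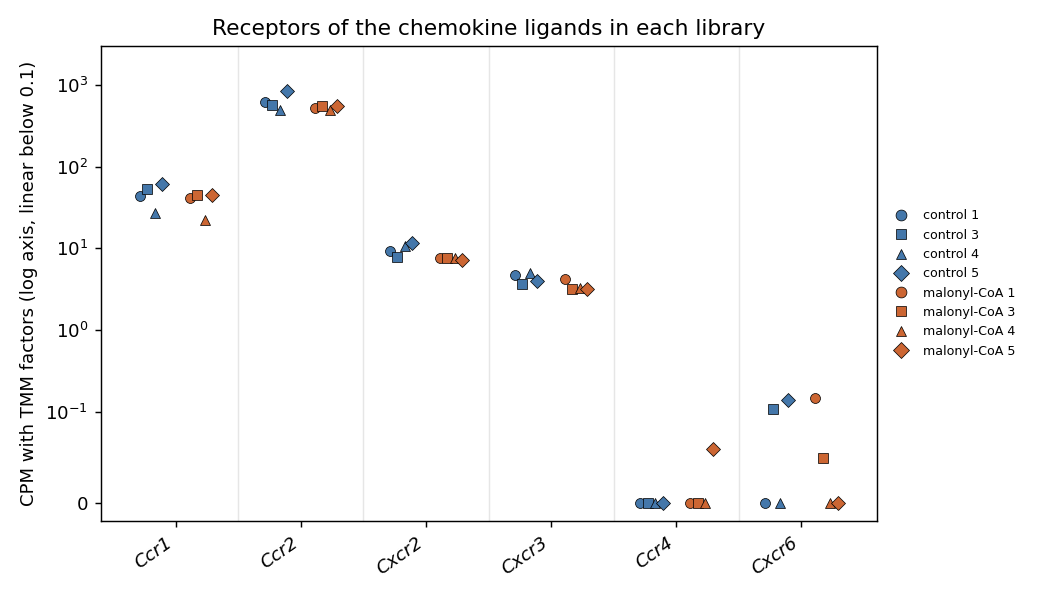
CPM of 6 receptor genes in each library, on an axis that is logarithmic above 0.1 and linear below. Ccr2 lies between 493 and 833 CPM, Ccr4 and Cxcr6 lie at or near 0, and the Cxcr2 points of the malonyl-CoA group lie below those of the control group.

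Of 24 receptor genes 13 were tested and 0 called, with 6 fitted higher and 7 lower. Besides Cxcr2, the smallest p-values belonged to Ccr7, which guides dendritic cells to lymph nodes (6.18 ± 2.84 and 12.2 ± 5.08 CPM, edgeR adjusted p = 0.515, log2 fold change 0.98 with an SE of 0.40), and to the decoy receptor gene Ackr1 (0.79, SE 0.36). The fractalkine receptor gene Cx3cr1 followed at 0.36 (SE 0.19). Cxcr4, the homing receptor of stem cells, was at 322 ± 34.5 and 281 ± 19.5 CPM, while its ligand gene Cxcl12, a product of stromal cells, had at most 2 counts in any library.

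Of the other 29 ligand genes 8 were tested and 0 called, with 4 fitted higher and 4 lower, and 8 were at 0 in all libraries. Ppbp, a platelet chemokine, averaged 296 ± 58.9 CPM over the controls and 227 ± 44.7 over the malonyl-CoA libraries (SD of 4; edgeR adjusted p = 0.515, log2 fold change -0.38 with an SE of 0.18). The interferon-inducible Cxcl9, which shares CXCR3 with Cxcl10, stood at 2.06 ± 1.56 and 4.51 ± 3.06 CPM (log2 fold change 1.09, SE 0.61), and its highest value was in malonyl-CoA 1, as that of Cxcl10 was. Cxcl5, a CXCR2 ligand, differed by 0.84 on the log2 scale (SE 0.53), and the membrane-bound chemokine gene Cx3cl1 by 0.33 (SE 0.27). Ccl28, Cxcl11 and Xcl1 reached a count of 10 in a library but not the filter.

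Genes that process chemokines or carry their signal (20 genes, 19 tested, 0 called) had 10 members fitted higher and 9 lower, with a median log2 fold change of 0.15. Mmp14, a membrane protease that can cut Ccl2 and other chemokines, stood at 2.00, 6.51, 4.52 and 5.45 CPM in control libraries 1, 3, 4 and 5 and 18.3, 22.1, 15.2 and 20.0 in malonyl-CoA 1, 3, 4 and 5. The groups did not overlap (edgeR adjusted p = 0.218, log2 fold change 2.03 with an SE of 0.29). Pik3r5, a regulatory subunit of the PI3-kinase that G protein-coupled receptors activate, followed at 14.6 ± 3.26 and 27.1 ± 3.44 CPM (0.89, SE 0.18, edgeR adjusted p = 0.352). Arrb2, which ends receptor signalling, differed by 0.32 on the log2 scale (SE 0.11), and Rgs18, an inhibitor of G protein signals in platelets and their precursors, by -0.54 (SE 0.20).

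Of factors known to act on chemokine genes, 24 were listed, 22 tested and 0 called. Of the 22, 21 were fitted higher and 1 lower, where 53.4% of all genes were fitted higher. Their median log2 fold change was 0.61, against 0.02 over all genes tested. The list was chosen with earlier results of these data known, so its counts are descriptions. In 8 of the 22, each of the 4 treated libraries exceeded every control, where 3.21% of all genes did. Bcl3, a nuclear partner of NF-kB, stood at 7.02, 13.0, 7.22 and 7.42 CPM in control libraries 1, 3, 4 and 5 and 23.5, 23.1, 18.5 and 22.3 in malonyl-CoA 1, 3, 4 and 5 (edgeR adjusted p = 0.218, log2 fold change 1.34 with an SE of 0.21). Irf1, a transcription factor of the interferon response, was at 40.5 ± 4.70 and 62.0 ± 3.10 CPM (0.61, SE 0.12), the NF-kB subunit gene Nfkb2 at 29.2 ± 7.18 and 55.5 ± 6.00 CPM (0.93, SE 0.18) and Irf5 at 29.4 ± 3.67 and 41.2 ± 2.51 CPM (0.49, SE 0.13). All 3 had an edgeR adjusted p of 0.352. In the other 14 the groups overlapped. Control 1, control 4 and malonyl-CoA 4 were the 3 lowest libraries in 5 of the 22, against 4.16% of all genes tested. Among the 5 were the cytokine genes Il1a and Il1b.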

How the data were processed

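RNA was sequenced in 8 libraries prepared with a strand-preserving kit (350 ng input), per the labels' protocols. The authors deposited raw read counts for each Ensembl identifier, made with cutadapt 1.8, STAR 2.5.2b and HTSeq 0.6.1 and build GRCm38, as the submitters' processing notes list; for the strand setting and annotation release, the sources used here give nothing. Counts of overlapping, antisense or near-identical genes are therefore uncertain. Classes that name no gene were left out of library sizes: reads in no gene were 1.11% to 2.94%, those in several genes 0.715% to 0.891% and those not uniquely placed 38.2% to 51.1% of tallied reads. Of 48709 identifiers 48349 matched GENCODE M21.

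Groups came from the sample titles. edgeR 4.0.16 in R 4.3.3 was fitted over all genes: filterByExpr (minimum count 10, minimum total 15), TMM factors, robust glmQLFit (the non-legacy method) and glmQLFTest (two-sided), without covariates, Benjamini-Hochberg over 12696 genes, threshold 0.05. Standard errors were taken as the size of the log2 fold change divided by the root of F. CPM use TMM factors, log2 CPM a prior count of 2, and levels per length the union of exons. All libraries differed by more than sampling noise (chi-square per gene at least 7.63 for any pair). Tests ran first on simulated counts. Alternatives were RLE factors, library size only, other filters, a replicate block, DESeq2 1.42.0, limma-voom (limma 3.58.1), libraries left out and loess corrections (span 0.5) for GC content and length.

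The members and lists were chosen with earlier results of these data known. Named genes are the 10 members, up to 4 genes of each list with the smallest unadjusted p, and the 3 closest profiles of each member among genes whose log2 CPM averaged 1 or more, not all printed. The receptors of the members, Cxcr4, Cxcl12, Cxcl3 and Cxcl1 were named for known binding or position after values were seen. Gene positions come from GENCODE M21 and promoters from RefSeq.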

Additional observations from a re-analysis of the deposited data

Results flagged for a closer look

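In 1 of 20 sets of 4 libraries (10 genes in 2 groups), a library stood far from the others by the gap to its nearest neighbour over the range: Ccl9 in malonyl-CoA 4, at 238 CPM, where the nearest library of its group was at 436 (a ratio of 0.91, above Dixon's critical value). Chance marks about 1 in 20 such sets.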

How the results depend on the processing

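Over 22 alternatives the number of chemokine ligands called stayed at 0 in 20, the number of all genes in 19 and that of the 62 other tested pathway genes in 20. The replicate block called 2 of the 10 (Ccl5 and Ccl22, adjusted p = 0.0464 each, where 1.13% of all genes were called higher), 10 pathway genes and 172 genes in all. DESeq2 called 1 of the 10, 6 pathway genes and 82 genes in all, and without a low-count filter edgeR called 1 gene in all. The pairing by library number was not met for all numbers: same-numbered deviations correlated at 0.43, 0.43, 0.75 and 0.052 for numbers 1, 3, 4 and 5, and 6 of 8 libraries correlated best with their own number. The median log2 fold change of the 10 was positive throughout, from 0.19 without control 4 to 1.09 without control 5 and malonyl-CoA 4. With 1 library or 1 number left out, Ccl4 ran from -0.17 (without control 4) to 0.72 and Ccl6 from -0.53 to 0.34, both with a change of sign (Ccl6 was at 0.0046 without number 3). Ccl6 also reversed without control 5 and malonyl-CoA 4 (0.38). The cause was not tested. The other 8 genes kept their sign in all 22. Corrections for GC content and length left every sign. Low counts, such as 7 for Ccl2 and 8 for Cxcl2 in control 4, carry a large counting error.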
